A study of Mus musculus with 12 samples.

Results

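Control cells in this series were the red cells of mouse kidney cortex with the strongest tdTomato signal, and the comparison described here was low salt diet with enalapril against control diet within them. It covered the 8 libraries titled as control cells, of 12 in the series, 4 per diet. All mice were C57BL/6 animals that carried nNOS/CreERT2 and the mTmG reporter, in which cells expressing neuronal nitric oxide synthase turn from membrane tdTomato to membrane GFP and all other kidney cells stay red. The treated group received a low salt diet and enalapril (150 mg in each litre of drinking water), and both groups were kept on their diet for 14 days. Salt restriction and drug were given only together, so their effects cannot be told apart. The age of the mice is not given in the sources used here. The other 4 libraries, 2 on each diet, held green macula densa cells and entered the model as groups of their own. The submitters took the intensely red cells to stand for epithelium of the distal tubule and collecting duct, but the sort rested on red brightness alone, with no tubule marker. The descriptions of the 8 libraries carry 8 different numbers, but the labels do not say that these are animals, so p-values measure the spread between these samples, which may be technical.

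Renin is the protease that starts the renin angiotensin cascade, and in the adult kidney it is made by juxtaglomerular cells in the wall of the afferent arteriole. Low salt intake and loss of angiotensin II feedback under an angiotensin-converting enzyme inhibitor both raise renin output, and smooth muscle cells further along the arteriole and pericytes can then switch to renin synthesis. These cells lie beside the glomerulus, with its podocytes and fenestrated endothelium, and carry the same red reporter as tubule cells.

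Each library held 4259020 to 14856542 counts, of which 58.85% to 64.96% fell on Gm42418, a gene model over ribosomal RNA sequence, and 781257 to 2331481 on nuclear protein-coding genes. A level of 3 counts corresponded to 0.230 to 0.732 CPM (counts relative to the scaled library total, in the usual unit of that name). All levels are CPM, given for control-diet libraries 1 to 4 and then for treated libraries 1 to 4, and the floor covers counting error only.

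The 8 libraries differed widely in the cell types they held. The podocyte score, the mean log2 CPM over 19 podocyte genes, was 6.24, 5.96, 5.45 and 2.72 in control-diet libraries 1 to 4 and 3.57, 6.00, 3.70 and 5.75 in treated libraries 1 to 4. Control-diet library 4 and treated libraries 1 and 3 were thus low, and the groups overlapped. Podxl, which encodes the sialoprotein that coats podocyte foot processes, measured 638, 519, 351 and 21.8 CPM on control diet and 79.8, 522, 99.8 and 429 CPM with treatment. The endothelium score over 20 genes was lowest in the same 3 libraries, with 5.81, 5.63, 5.06 and 1.85 on control diet and 3.72, 5.01, 3.34 and 5.24 with treatment. Ehd3, a membrane trafficking gene typical of glomerular endothelium, measured 308, 255, 187 and 5.57 CPM and 64.5, 149, 37.9 and 238 CPM. In bulk libraries of this kind, fewer cells of a type and less RNA per cell cannot be told apart.

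The labelled tubule cells were present beside these. Aqp2, the vasopressin-regulated water channel of collecting duct principal cells, measured 47.2, 84.9, 174 and 252 CPM on control diet and 156, 64.7, 49.9 and 74.3 CPM with treatment. The principal cell score over 11 genes was 3.27, 4.60, 4.98 and 6.03 on control diet and 4.54, 3.89, 2.93 and 4.35 with treatment, and the intercalated cell score over 12 genes 1.45, 3.21, 3.78 and 5.23 and 3.31, 2.6, 2.05 and 3.27. Control-diet library 4 was highest in both and control-diet library 1 lowest among the control-diet libraries. Nos1, which marks macula densa cells and drove the recombinase, stayed between 0.109 and 0.732 CPM, near the level of 3 counts. Leukocyte markers also varied, from 10.9 to 103 CPM summed over the list on control diet and 4.40 to 160.3 CPM with treatment, highest in treated library 2. Erythroid markers summed to 3.71 to 94.5 CPM and 0 to 66.4 CPM, with treated libraries 1 and 3 at or near 0. In words, control-diet library 4 was tubule-rich and glomerulus-poor, treated libraries 1 and 3 were glomerulus-poor, and the remaining 5 libraries held much glomerular RNA. The part of these differences in the results below was tested only where a value with libraries left out is given. Marker scores in the model were centred within each diet. They take up spread within a diet and cannot adjust for content that differs between the diets.

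**Figure D1:**
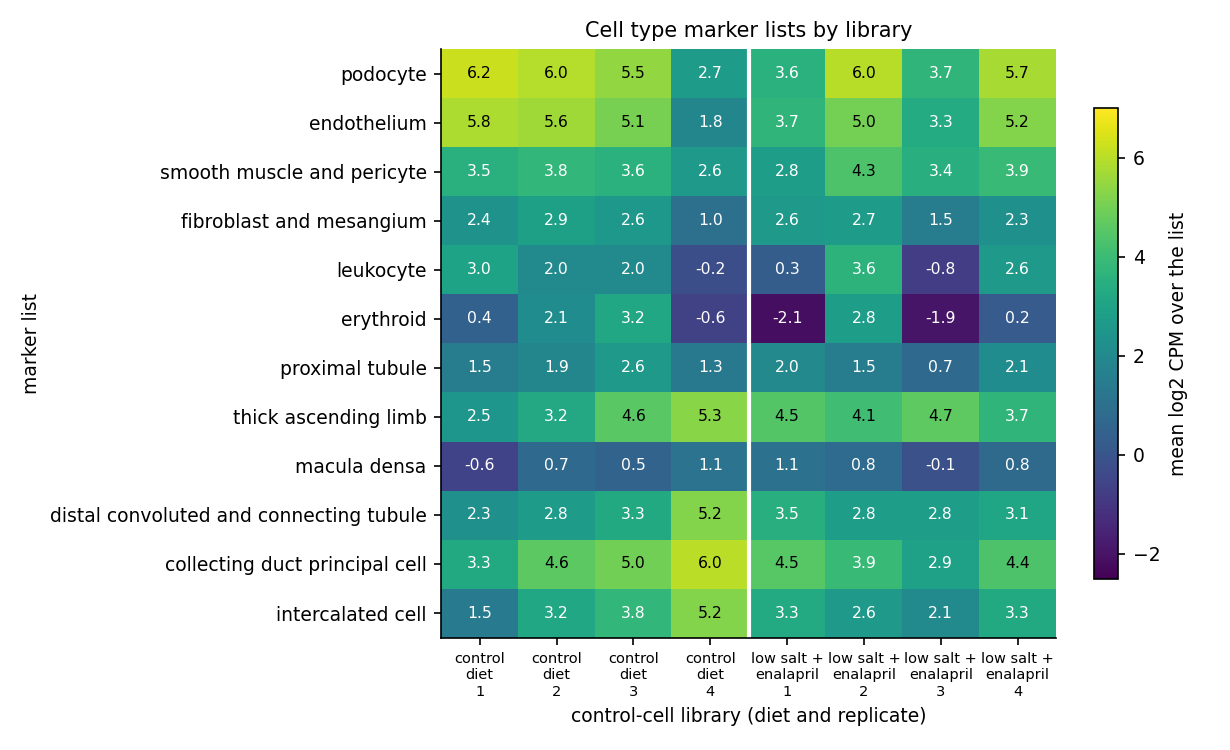
Mean log2 CPM over each of 12 cell type marker lists (rows) in the 8 control-cell libraries (columns, control diet left of the white line, low salt plus enalapril right), with the value printed in each cell. Podocyte and endothelium rows are low in control-diet library 4 and treated libraries 1 and 3, while principal and intercalated cell rows peak in control-diet library 4.

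Renin was the gene that set the diets apart. Ren1, on chr1:133350510-133360325 of GRCm38, measured 5.54, 1.88, 6.18 and 4.44 CPM in control-diet libraries 1 to 4 and 42.7, 135, 66.2 and 92.4 CPM in treated libraries 1 to 4. Every treated library exceeded every control-diet library, with treated library 2 highest and library 1 lowest of the 4. Ren1 rose from 4.51 ± 1.90 to 84.1 ± 39.5 CPM (SD, 4 libraries each), or 4.22 ± 0.43 (standard error) on the log2 scale, at an edgeR adjusted p of 0.00470. An exact permutation test of the 70 ways to split the 8 libraries gave a two-sided p of 0.0286, the smallest this design allows. Ren1 was the only gene past the threshold of 0.05 among 14180 tested, or 0.00705%, and none was lower (0% by edgeR, with 345 genes lower at an unadjusted p under 0.05 and 13 called lower by DESeq2). The call ended when the 8 control-cell libraries were fitted alone (edgeR adjusted p 0.0870, with 730 genes at an unadjusted p under 0.05) and with the replicate number as a block (edgeR adjusted p 0.0990), while the log2 fold change stayed at 4.25 and 4.19.

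The renin difference was as large without the libraries that stood apart. Leaving out control-diet library 4 and treated libraries 1 and 3 together gave 4.65 on the log2 scale (edgeR adjusted p 0.00127). With the podocyte score as a covariate the log2 fold change was 4.13 (edgeR adjusted p 0.000387), with the endothelium score 4.18 (0.000714) and with the principal cell score 4.22 (0.0121). Because these scores were centred within each diet, a nearly unchanged fold change was largely set in advance. These 3 fits therefore do not test content that differs between the diets. Leaving out single libraries gave 3.89 to 4.44.

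The start of Ren1 holds a short element known from work on the mouse renin promoter as the binding site of HOX and PBX homeodomain proteins, shown here because Ren1 was the gene called. The letters AATAAATCA of this element were searched on both strands in the 250 bases before the start of every RefSeq gene (GRCm38.p6). They were found in 89 of 32851 promoters, or 0.271%, among them Ren1. In Ren1 they lie 64 to 56 bases before the start. Capitals mark them in the stretch printed, which is chr1:133350600-133350628 of the plus strand. The deposited table, from which the gene coordinates above come, starts Ren1 upstream of this RefSeq start, so the element lies inside the gene as annotated there. Ren1 also holds TATAAA, found in 12.4% of promoters, outside the window printed.
Ren1: gccctggggtAATAAATCAaagcagagcc

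Genes known from renin cells showed no common direction. Of 20 tested members of the renin cell list, 10 were above 0 and 10 below, with a median log2 fold change of -0.017 beside -0.036 over all genes tested. Akr1b7, an aldose reductase relative that is co-expressed with renin in juxtaglomerular cells, measured 1.41, 1.03, 0.951 and 1.03 CPM on control diet and 3.76, 10.005, 2.73 and 8.12 CPM with treatment. The groups did not overlap and the highest values were in treated libraries 2 and 4, which also held the most Ren1. Its log2 fold change was 2.45 (standard error 0.49), which missed the threshold at an edgeR adjusted p of 0.315 but passed with the podocyte score as a covariate (edgeR adjusted p 0.0378) and with DESeq2 (adjusted p 0.00146). It stood at 2.98 without the 3 glomerulus-poor libraries, and its exons overlap the antisense gene Gm13857. Gja5, the connexin 40 gene of renin cells and arteriolar endothelium, measured 12.8, 16.9, 6.37 and 0.928 CPM and 1.07, 8.05, 0.629 and 11.7 CPM, so it followed the endothelium score and the groups overlapped. Ebf1, Rbpj, Foxd1 and Crebbp, regulators of the renin cell lineage, had edgeR adjusted p-values of 0.974 to 0.999.

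The contractile genes of the vessel wall named here were highest in treated library 2. Of 15 tested smooth muscle and pericyte genes, 10 were above 0 and 5 below with a median log2 fold change of 0.47, and 3 were higher at an unadjusted p under 0.05, where 4.01% of all genes tested were. In edgeR and in DESeq2 0 members passed adjustment. Summed over the list they reached 363, 403, 367 and 216 CPM in the control-diet libraries and 212, 726, 370.2 and 495 CPM in the treated ones, so the groups overlapped and treated libraries 1 and 3 lay within or just below the control-diet range. Lmod1, an actin nucleator of smooth muscle, measured 4.78, 3.66, 4.85 and 2.68 CPM on control diet and 6.21, 15.1, 11.7 and 7.72 CPM with treatment, with no overlap (2.12% of all genes tested were higher with no overlap). Tagln, the actin-binding protein SM22, measured 6.63, 6.10, 8.56 and 7.22 CPM and 6.44, 27.6, 15.9 and 17.2 CPM, and Notch3, the receptor of arteriolar smooth muscle and pericytes, 14.1, 14.9, 16.1 and 9.80 CPM and 10.8, 39.0, 20.8 and 26.0 CPM. In both, treated library 2 was highest and treated library 1 lay within the control-diet range. Myh11, the smooth muscle myosin heavy chain, measured 105, 74.4, 120.3 and 94.9 CPM and 77.8, 304, 158 and 197 CPM, and Acta2, smooth muscle actin, 16.6, 17.4, 29.3 and 14.6 CPM and 12.4, 59.3, 27.5 and 31.4 CPM. Treated library 2 thus led in renin, Akr1b7 and the 5 contractile genes named. Treated library 1 had the least Ren1 among treated libraries and the least of each of the 5. These 5 were picked from the 10 members above 0, so the likeness to renin does not hold for the whole list. Pdgfrb and Des, for example, were below 0. They had 173, 501, 140 and 29 counts and 70, 225, 70 and 7 counts on control diet. With treatment they had 54, 56, 49 and 110 counts and 39, 16, 15 and 39 counts, not scaled for depth. Without the 3 glomerulus-poor libraries the median of the list was 0.84, with 7 members higher and 1 lower at an unadjusted p under 0.05, and without treated library 2 it was 0.14. Exons of Tagln overlap Pcsk7 and Gm48529 and those of Notch3 overlap Gm17276, so these counts are uncertain.

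**Figure D2:**
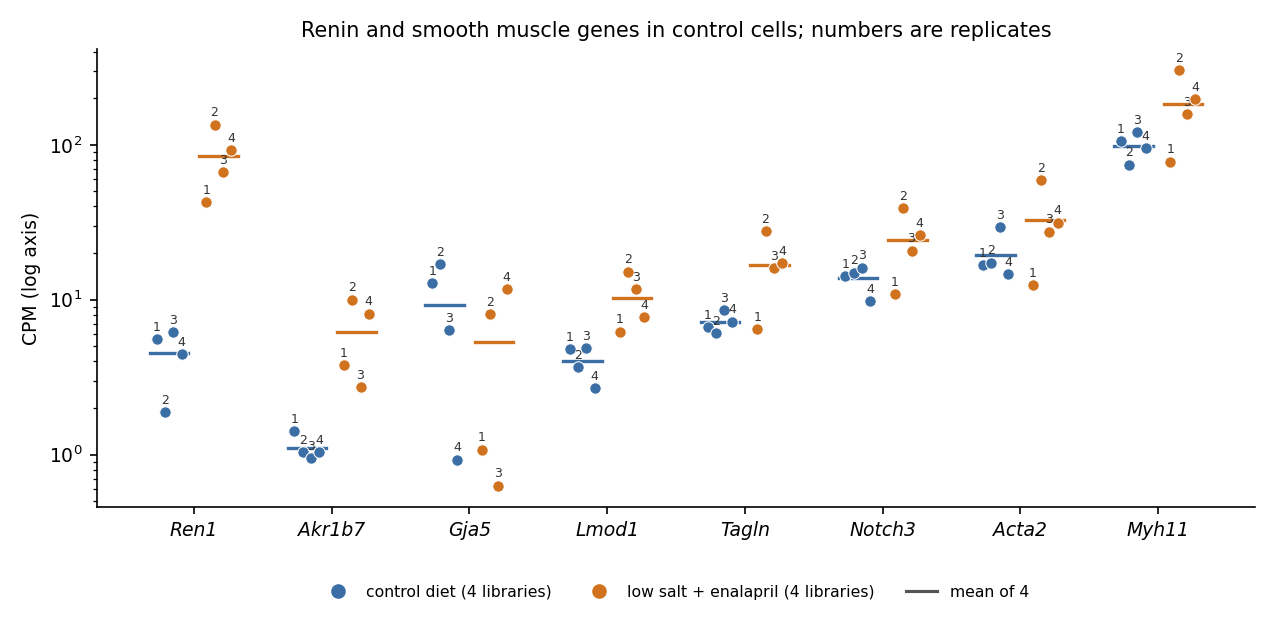
CPM on a log axis of Ren1, Akr1b7, Gja5 and 5 smooth muscle genes in the 4 control-diet (blue) and 4 treated (orange) control-cell libraries, with replicate numbers at the points and bars at the mean of 4. Ren1, Akr1b7 and Lmod1 show no overlap between diets, Gja5 is low in the glomerulus-poor libraries, and treated library 2 is highest in all 5 smooth muscle genes.

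Among markers of the mesangium and of matrix, 2 of the collagen genes stood above the rest of their list. Of 7 tested members 2 were above 0 and 5 below, with a median log2 fold change of -0.85. The list had 2 members higher (4.01% of all genes tested) and 2 lower (2.43%) at an unadjusted p under 0.05, and 2 did not overlap (2.12%). In edgeR 0 members passed adjustment, while DESeq2 called Col1a1 and Col3a1 (adjusted p 0.0184 and 0.0482). Col1a1, an interstitial collagen chain, measured 0.543, 0.563, 0.380 and 0.619 CPM on control diet and 13.4, 2.44, 2.10 and 1.62 CPM with treatment, and Col3a1 1.85, 0.657, 2.19 and 0.928 CPM and 17.5, 7.32, 2.31 and 2.74 CPM. Neither overlapped, and treated library 1 was far above the rest in both. Col1a2, whose product pairs with that of Col1a1 in type I collagen, measured 17.7, 13.8, 8.18 and 1.34 CPM and 16.3, 11.2, 2.10 and 9.04 CPM, with overlap and a log2 fold change of -0.060. Itga8, the integrin of mesangial cells, measured 22.2, 43.4, 16.7 and 1.13 CPM and 1.07, 6.34, 1.89 and 5.18 CPM, and Serpine2, a protease inhibitor that mesangial cells secrete, 9.56, 18.1, 8.27 and 1.55 CPM and 2.84, 4.88, 3.77 and 4.37 CPM. Control-diet library 2 was highest in both and control-diet library 4 was among the lowest, so the groups overlapped. The log2 fold changes were 3.24, 2.43, -2.57 and -1.26, with edgeR adjusted p-values of 0.360 to 0.735. They became 1.98, 1.63, -2.27 and -1.38 without the 3 glomerulus-poor libraries. Itga8 overlaps the antisense gene E030013I19Rik and is uncertain.

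No other gene of the renin angiotensin system passed the edgeR test. Of 11 tested members, 6 were above 0 and 5 below, with a median log2 fold change of 0.0008, and Ren1 was the only call. Ace, the enzyme that enalapril inhibits, measured 9.24, 7.78, 8.37 and 0.103 CPM on control diet and 3.15, 11.2, 3.56 and 8.83 CPM with treatment, and Agt, the angiotensinogen gene, 0.435, 1.78, 3.04 and 5.16 CPM and 4.76, 3.66, 5.03 and 2.94 CPM. Both overlapped between the diets, and Ace was low in the 3 glomerulus-poor libraries, with edgeR adjusted p-values of 0.999 for Ace and 0.965 for Agt. Agtr1a, the main angiotensin II receptor, measured 2.17, 6.38, 2.76 and 0.103 CPM and 0.153, 1.22, 0.629 and 1.73 CPM, and Mme, the peptidase neprilysin, 41.8, 33.8, 35.0 and 71.1 CPM and 27.7, 28.6, 35.0 and 28.4 CPM. The groups overlapped in both, with control-diet library 2 highest in Agtr1a and control-diet library 4 highest in Mme. Their edgeR adjusted p-values were 0.884 and 0.696.

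Beyond renin no gene passed the test, and the smallest p-values were spread over several of the lists described below. At an unadjusted p under 0.05 edgeR gave 913 genes, or 6.44% of those tested, with 568 higher and 345 lower (4.01% and 2.43%). The groups did not overlap for 301 higher and 292 lower genes (2.12% and 2.06%). Among genes of at least 5 CPM, the 10 smallest p-values in the higher direction belonged to Ren1, Lcn2, Pde10a, Nr1d2, Socs3, Clu, Atf3, Dcdc2a, Hspa1a and Nr1d1. In the lower direction these were Gmcl1, Kap, Hsp90b1, Pnmal2, Gprin3, Calr, Dab1, P4ha1, Fam3c and Sod3. Dcdc2a, a doublecortin-domain gene linked to primary cilia, measured 13.7, 11.5, 11.2 and 9.70 CPM and 54.4, 21.5, 28.7 and 18.2 CPM, and Sod3, the extracellular superoxide dismutase, 44.4, 20.8, 34.8 and 17.1 CPM and 14.2, 15.1, 8.81 and 12.8 CPM. P4ha1, a collagen prolyl hydroxylase of the endoplasmic reticulum, measured 8.04, 10.9, 13.1 and 10.2 CPM and 4.76, 6.34, 3.35 and 6.40 CPM. The edgeR adjusted p-values of the 19 genes other than Ren1 ran from 0.315 to 0.409. The count of 913 became 420 without the 3 glomerulus-poor libraries, 591 without treated library 1 and 588 without treated library 3.

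**Figure D3:**
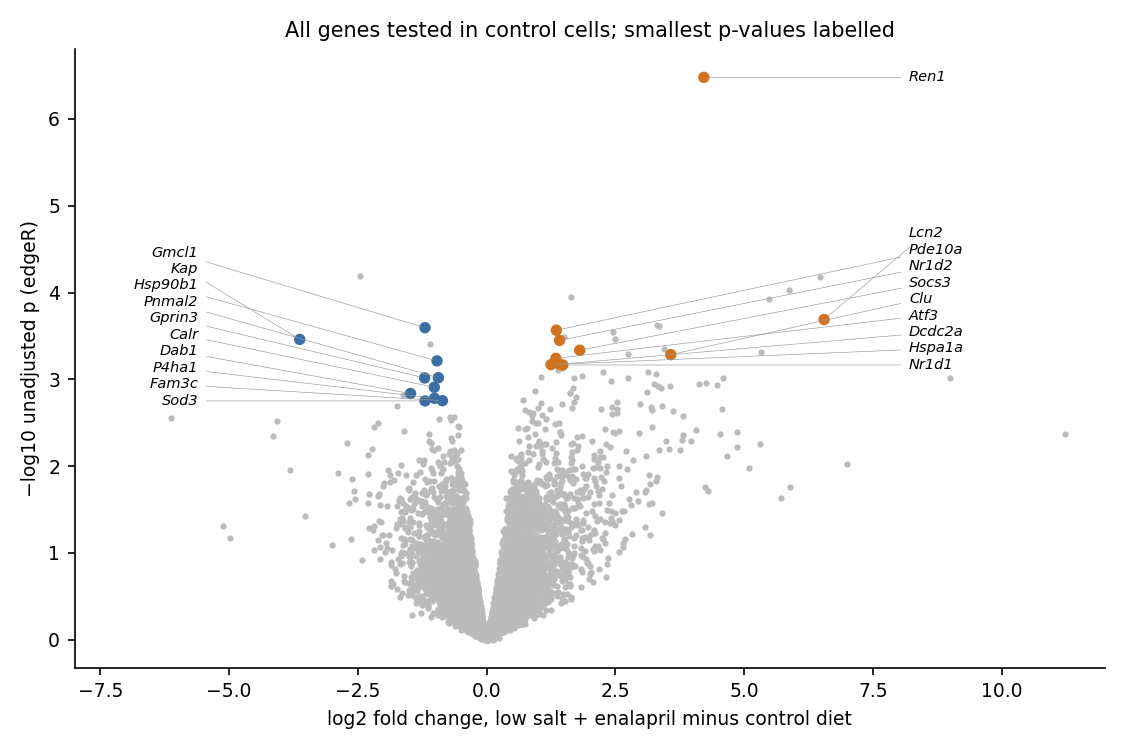
Log2 fold change between the diets (x axis) against −log10 of the unadjusted edgeR p (y axis) for the 14180 genes tested in control cells. Labels mark the 10 smallest p-values in each direction among genes of at least 5 CPM, and Ren1 stands alone at the top.

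Podocyte and endothelial genes were mostly lower on average with treatment, but the diets overlapped for every member except Npnt. All 19 podocyte genes were below 0 with a median log2 fold change of -0.37, and 19 of 20 endothelial genes were below 0 with a median of -0.62, beside -0.036 over all genes tested. In edgeR and in DESeq2 0 members of either list passed adjustment. At an unadjusted p under 0.05, 1 podocyte gene and 0 endothelial genes were lower, where 2.43% of all genes tested were. Summed over the list, podocyte genes reached 621 to 2473 CPM on control diet and 482 to 1984 CPM with treatment, and endothelial genes 96.2 to 2376 CPM and 392 to 1815 CPM. Npnt, an integrin alpha 8 ligand of podocytes and tubule basement membranes, was the member with an unadjusted p under 0.05. It measured 208, 175, 195 and 196 CPM on control diet and 51.9, 152, 16.4 and 137 CPM with treatment, with no overlap (2.06% of all genes tested were lower with no overlap), and treated libraries 1 and 3 were lowest. Its log2 fold change was -1.12 (edgeR adjusted p 0.776) and -0.42 without the 3 glomerulus-poor libraries. Without those libraries the medians of the podocyte and endothelial lists were -0.081 and -0.40.

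Most genes of the collecting duct and distal tubule were lower on average in the treated libraries. All 11 principal cell genes were below 0 with a median log2 fold change of -0.81, 9 of 12 intercalated cell genes with a median of -0.90 and 7 of 10 distal convoluted and connecting tubule genes with a median of -0.33. In edgeR 0 passed adjustment and in DESeq2 1, Pvalb, and 1, 3 and 4 members were lower at an unadjusted p under 0.05 (2.43% of all genes tested). Aqp4, a basolateral water channel of principal cells, measured 16.7, 25.5, 42.9 and 92.0 CPM on control diet and 18.5, 13.9, 2.73 and 12.3 CPM with treatment. Slc4a1, the anion exchanger of acid-secreting intercalated cells, measured 3.91, 17.0, 31.0 and 69.7 CPM and 1.69, 7.08, 0 and 10.8 CPM, and Oxgr1, the oxoglutarate receptor of intercalated cells, 3.80, 7.41, 9.32 and 35.6 CPM and 2.69, 2.93, 1.47 and 4.87 CPM. The highest value of each was in control-diet library 4 and the lowest in treated library 3, and the groups overlapped. Calb1, the calcium-binding protein of the distal convoluted and connecting tubule, measured 16.0, 25.3, 30.1 and 159 CPM and 20.4, 13.7, 8.81 and 26.6 CPM. Pvalb, a calcium buffer of the early distal convoluted tubule, had 4, 2, 12 and 21 counts on control diet and 0 in all 4 treated libraries.

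These distal differences leaned on the library richest in tubule RNA. The log2 fold changes of Aqp4, Slc4a1, Oxgr1 and Calb1 were -1.88, -2.62, -2.18 and -1.71, with edgeR adjusted p-values of 0.491 to 0.696. Without control-diet library 4 they were -1.23, -1.81, -1.15 and -0.43, and without all 3 glomerulus-poor libraries -1.13, -0.93, -0.75 and -0.21. Without control-diet library 4 the medians of the principal cell, intercalated cell and distal convoluted tubule lists were -0.31, 0.029 and 1.07, so the intercalated and distal lists turned to the positive side. Leaving out control-diet library 1, the library with the lowest intercalated score, gave 7 of 11 principal cell genes and 7 of 12 intercalated cell genes lower at an unadjusted p under 0.05.

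In the thick ascending limb list the median over 12 genes was 0.36, with 8 members above 0 and Egf far below. Egf, the growth factor precursor of thick ascending limb and distal convoluted tubule, measured 89.3, 127, 511 and 738 CPM on control diet and 55.0, 125, 69.6 and 92.1 CPM with treatment, while Slc12a1, the furosemide-sensitive cotransporter of the thick ascending limb, measured 41.5, 59.3, 223 and 309 CPM and 219, 193, 429 and 143 CPM. Control-diet libraries 3 and 4 had the highest Egf, and in treated libraries Egf reached at most 125 CPM. The log2 fold change of Egf was -2.10 (standard error 0.57), which passed with DESeq2 (adjusted p 0.0428) but not with edgeR (adjusted p 0.463), and was -1.16 without the 3 glomerulus-poor libraries. Egf overlaps Gm42697 and 6330410L21Rik on the other strand and is uncertain.

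Genes of tubular injury split the treated libraries into 2 and 2. Lcn2, the lipocalin NGAL that injured distal tubules secrete, measured 0.326, 0.469, 1.43 and 1.34 CPM on control diet and 136, 7.32, 194 and 2.94 CPM with treatment. Spp1, the matrix protein osteopontin, measured 20.5, 51.1, 95.1 and 217 CPM and 2397, 293, 4487 and 171 CPM, and Clu, the secreted chaperone clusterin, 27.0, 21.6, 26.9 and 66.0 CPM and 648, 71.3, 886 and 79.6 CPM. In all of these treated libraries 1 and 3 were far above treated libraries 2 and 4. Krt19, a keratin of simple epithelia that appears in injured tubules, measured 1.41, 1.13, 1.71 and 1.03 CPM and 16.1, 2.68, 13.6 and 2.94 CPM, and C3, the central complement component, 4.78, 5.25, 2.66 and 6.19 CPM and 109.8, 7.56, 47.4 and 6.40 CPM. Mt1, a metal-binding metallothionein, measured 1.41, 2.72, 4.28 and 10.4 CPM and 41.5, 5.37, 92.5 and 7.01 CPM. Lcn2, Clu, Krt19 and C3 did not overlap between the diets, though for C3 treated library 4 exceeded the highest control-diet library by little. The log2 fold changes of Lcn2, Clu and Spp1 were 6.55, 3.57 and 4.26 with standard errors of 1.26, 0.77 and 1.004, and edgeR adjusted p-values of 0.315, 0.334 and 0.360.

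Over the whole injury list, chosen after values were seen, 17 of 22 tested members were above 0 with a median of 1.21. At an unadjusted p under 0.05, 10 were higher (4.01% of all genes tested) and 5 did not overlap (2.12%), but 0 passed adjustment in edgeR. DESeq2 called Lcn2, Clu, Spp1, Krt19, C3, Mt1 and Mt2. Summed over the list, treated libraries 1 to 4 reached 3687, 593, 6051 and 465 CPM and control-diet libraries 268, 301, 326 and 495 CPM. Treated libraries 1 and 3 were also the treated libraries with the lowest podocyte and endothelium scores. Control-diet library 4 had a still lower podocyte score of 2.72 and measured 1.34 CPM of Lcn2 and 66.0 CPM of Clu. Without the 3 glomerulus-poor libraries the log2 fold changes were 2.67 for Lcn2, 1.59 for Clu, 2.06 for Spp1 and 0.71 for C3, and the list median was 0.64. Vim and Cd44, which also mark interstitial and glomerular cells, had edgeR adjusted p-values of 0.965 and 0.929. Spp1 overlaps Gm42793 on its own strand and Mt2 overlaps Gm45774, so both are uncertain.

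**Figure D4:**
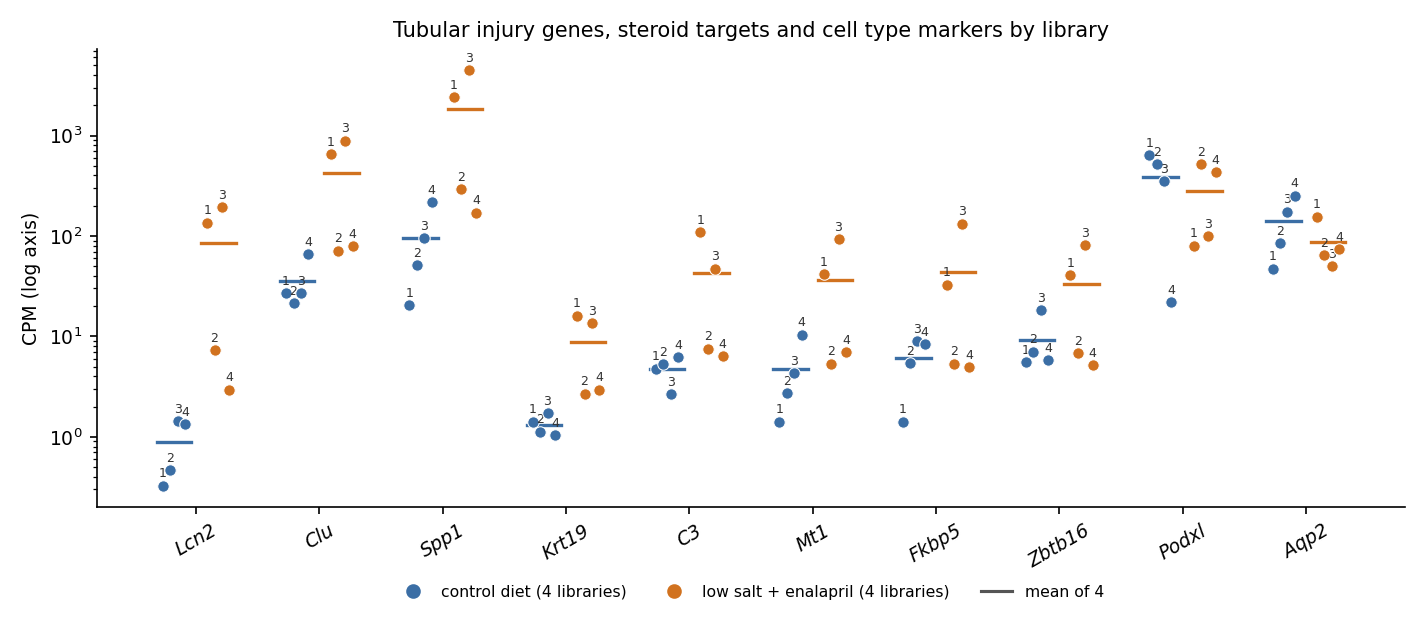
CPM on a log axis of 6 injury genes, the steroid-induced genes Fkbp5 and Zbtb16, and the podocyte and principal cell markers Podxl and Aqp2 in the 4 control-diet (blue) and 4 treated (orange) libraries, numbered by replicate with bars at the mean. Treated libraries 1 and 3 lie above 2 and 4 in every injury gene and in Fkbp5 and Zbtb16, and below them in Podxl.

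The same 2 treated libraries were highest in Fkbp5 and Zbtb16. Fkbp5, a cochaperone induced by glucocorticoid and mineralocorticoid receptors, measured 1.41, 5.44, 8.94 and 8.35 CPM on control diet and 32.8, 5.37, 132 and 4.98 CPM with treatment. Zbtb16, a zinc finger factor with the same steroid induction, measured 5.54, 7.03, 18.3 and 5.78 CPM and 40.5, 6.83, 81.6 and 5.18 CPM. In both genes treated libraries 1 and 3 exceeded every control-diet library and treated libraries 2 and 4 lay within or near the control-diet range. The log2 fold changes were 2.85 and 1.86 with edgeR adjusted p-values of 0.607 and 0.758, and without the 3 glomerulus-poor libraries they were -0.049 and -0.81. Of 22 genes of the aldosterone and sodium channel pathway, 10 were above 0 and 12 below, 0 passed adjustment in edgeR or DESeq2 and 2, Fkbp5 and Zbtb16, were higher at an unadjusted p under 0.05 (4.01% of all genes tested). Sgk1, the kinase that aldosterone induces to keep sodium channels at the membrane, measured 74.3, 59.9, 64.3 and 6.29 CPM and 26.9, 56.6, 46.1 and 44.7 CPM, with treated library 1 the lowest of the treated 4. Tsc22d3, the steroid-induced leucine zipper protein GILZ, measured 11.4, 13.6, 21.5 and 3.92 CPM and 14.8, 5.86, 23.9 and 7.21 CPM, and Per1, a clock gene that steroids also induce, 20.4, 19.98, 26.3 and 4.54 CPM and 23.6, 11.5, 39.4 and 13.7 CPM. Treated libraries 1 and 3 exceeded treated libraries 2 and 4 in these as well, but the diets overlapped. The epithelial sodium channel subunits Scnn1a, Scnn1b and Scnn1g had edgeR adjusted p-values of 0.997, 0.987 and 0.963. Scnn1a measured 17.5, 62.5, 69.2 and 173 CPM and 72.0, 50.5, 122 and 39.5 CPM, with control-diet library 4 highest. In the prostaglandin pathway, which carries the macula densa signal to renin cells, 4 of 11 genes were above 0 and 7 below, and 0 passed adjustment in edgeR or DESeq2. Ptgs2, the inducible cyclooxygenase, measured 0, 0.375, 0.570 and 0 CPM and 0.230, 1.46, 0.419 and 1.12 CPM, near the floor.

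Immediate early genes, which stimulated or stressed cells transcribe within minutes, were mostly higher in treated libraries. Of 23 tested members, 20 were above 0 with a median log2 fold change of 0.87 beside -0.036 over all genes tested. At an unadjusted p under 0.05, 12 were higher (4.01% of all genes tested) and 0 lower, and 6 did not overlap (2.12%), while 0 passed adjustment in edgeR. Socs3, the feedback inhibitor of cytokine signalling, measured 8.26, 5.16, 5.13 and 4.23 CPM on control diet and 22.7, 11.5, 20.96 and 24.1 CPM with treatment, and Atf3, a stress-induced transcription factor, 11.0, 10.1, 6.65 and 12.3 CPM and 27.3, 14.4, 25.8 and 33.5 CPM. Treated library 2 was lowest of the 4 in both, and still above every control-diet library. Jun, the AP-1 subunit, measured 81.2, 57.9, 72.4 and 57.7 CPM and 93.1, 99.3, 85.1 and 125 CPM, Ccn1, a matricellular protein induced by stretch and growth factors, 9.02, 6.19, 7.80 and 7.84 CPM and 25.2, 11.7, 13.0 and 16.7 CPM, and Zfp36, which destabilises cytokine messages, 13.5, 7.97, 12.1 and 14.5 CPM and 20.9, 18.3, 22.9 and 27.0 CPM. None of these overlapped between the diets.

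Most of the immediate early genes named here stayed above 0 without the 3 glomerulus-poor libraries. The log2 fold changes of Socs3, Atf3, Jun, Ccn1 and Zfp36 were 1.81, 1.34, 0.58, 1.13 and 0.89, and without the 3 glomerulus-poor libraries 1.55, 1.40, 0.67, 0.90 and 1.04. For Fos and Junb, AP-1 subunits as well, they were 0.90 and 0.71 with all libraries and 1.37 and 1.11 without those 3. Klf6, a zinc finger factor of the same list, went from 1.18 to 0.044, with treated libraries 1 and 3 at 39.9 and 79.2 CPM and the other treated libraries at 17.1 and 17.6 CPM. Without the 3 libraries 11 members were higher and 1 lower at an unadjusted p under 0.05, with a median of 0.75. The edgeR adjusted p-values of the list ran from 0.334 to 0.999, and DESeq2 called Socs3 and Atf3 (adjusted p 0.00632 and 0.0115). Klf2, induced by blood flow in endothelium, measured 59.6, 45.8, 57.3 and 7.94 CPM and 8.13, 38.1, 18.03 and 28.3 CPM and was low in the 3 glomerulus-poor libraries. Jun overlaps Junos, Junb overlaps Prdx2 and Zfp36 overlaps Gm44710, so their counts are uncertain.

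Genes that cyclic AMP induces, the second messenger of renin release, held Pde10a among the smallest p-values. Pde10a, a phosphodiesterase that breaks down cyclic nucleotides, measured 4.56, 4.50, 3.61 and 3.09 CPM on control diet and 10.2, 8.54, 15.5 and 6.40 CPM with treatment, with no overlap and a log2 fold change of 1.35 (edgeR adjusted p 0.315). Rgs2, a brake on Gq-coupled receptors, measured 7.06, 8.91, 8.65 and 7.43 CPM and 11.9, 10.5, 27.3 and 7.72 CPM, and Sik1, a kinase induced by cyclic AMP, 17.8, 8.44, 12.5 and 6.91 CPM and 21.8, 11.7, 52.0 and 9.44 CPM. Treated library 3 was highest in all of these. Of 10 list members 9 were above 0 with a median of 0.65, 3 were higher at an unadjusted p under 0.05 (4.01% of all genes tested), 2 did not overlap (2.12%) and 0 passed adjustment in edgeR, while DESeq2 called Pde10a. Without treated library 3 the cyclic AMP responsive list had 1 member at that p and a median of 0.35. Leaving the 3 glomerulus-poor libraries out gave a median of 0.074, with Pde10a at 0.79, Rgs2 at 0.12 and Sik1 at -0.30.

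Folding genes of the endoplasmic reticulum were lower with treatment across all 4 treated libraries. Hsp90b1, the chaperone GRP94, measured 224, 303, 232 and 274 CPM on control diet and 142, 153, 94.3 and 139.5 CPM with treatment. Calr, the lectin chaperone calreticulin, measured 175, 294, 179 and 232 CPM and 121, 122, 79.5 and 111 CPM, and Hspa5, the master chaperone BiP, 67.4, 123, 114 and 112 CPM and 65.6, 70.0, 47.8 and 49.7 CPM. Hsp90b1 and Calr did not overlap between the diets, and treated library 3 was lowest in both. Hspa5 overlapped only through control-diet library 1, the lowest of its group. Pdia6, a disulfide isomerase, measured 20.8, 31.8, 26.1 and 31.0 CPM and 18.9, 19.8, 10.1 and 18.1 CPM, and Stt3a, a catalytic subunit of oligosaccharyltransferase, 18.7, 17.7, 19.1 and 18.05 CPM and 11.5, 9.03, 14.3 and 10.7 CPM. Both were without overlap. The log2 fold changes of Hsp90b1, Calr, Hspa5, Pdia6 and Stt3a were -0.97, -1.02, -0.83, -0.71 and -0.69, with edgeR adjusted p-values of 0.347, 0.361, 0.614, 0.614 and 0.454.

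Over the 22 tested chaperone and translocation genes, a list chosen after values were seen, 19 were below 0 with a median of -0.51. At an unadjusted p under 0.05, 12 were lower (2.43% of all genes tested), 6 did not overlap (2.06%) and 0 passed adjustment in edgeR, while DESeq2 called Hsp90b1 and Calr (adjusted p 0.00632 and 0.0256). The list summed to 991, 1379.9, 1119 and 1312 CPM in the control-diet libraries and 865, 815, 708 and 774 CPM in the treated ones, without overlap. Without the 3 glomerulus-poor libraries the median was -0.41, with 4 members lower at an unadjusted p under 0.05, and the log2 fold changes of Hsp90b1, Calr and Stt3a were -0.79, -0.89 and -0.90. Herpud1, which helps extract misfolded proteins, went the other way through 1 library, with 7.61, 9.85, 13.5 and 7.43 CPM on control diet and 11.5, 11.5, 46.5 and 9.65 CPM with treatment. Ddit3, the stress factor CHOP, measured 3.69, 6.38, 4.09 and 5.47 CPM and 6.67, 5.37, 5.87 and 7.01 CPM, with an edgeR adjusted p of 0.965. Exons of Hsp90b1 overlap 1810014B01Rik and Gm15344, those of Pdia6 overlap Atp6v1c2 and those of Pdia3 overlap Catsper2, so these counts are uncertain.

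Several of these promoters share the endoplasmic reticulum stress element, CCAAT followed after 9 bases by CCACG, through which ATF6 with NF-Y induces chaperones, and they are shown because their genes were low together. The element begins with a CCAAT box and was searched on both strands in the 250 bases before the RefSeq start (GRCm38.p6). It was found in 7 of 19 promoters of the list with a RefSeq entry, or 36.8%, against 37 of 32851, or 0.113%, of all promoters. The 7 are Calr, Canx, Creld2, Dnajc3, Hsp90b1, Hspa5 and Pdia6. The match is a description of these letters and not of factor binding in these cells. Capitals mark the element or its reverse complement, and the coordinates are those of the whole stretches printed. These are from Hsp90b1 (chr10:86705510-86705694, minus strand, 2 matches), Calr (chr8:84846935-84847181, minus strand), Hspa5 (chr2:34772020-34772048, plus strand, the site and its flanks alone) and Pdia6 (chr12:17266339-17266544, plus strand).
Hsp90b1: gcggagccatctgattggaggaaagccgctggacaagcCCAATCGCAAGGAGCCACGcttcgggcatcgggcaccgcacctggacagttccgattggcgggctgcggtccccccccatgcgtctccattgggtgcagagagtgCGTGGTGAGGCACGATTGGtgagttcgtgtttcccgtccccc
Calr: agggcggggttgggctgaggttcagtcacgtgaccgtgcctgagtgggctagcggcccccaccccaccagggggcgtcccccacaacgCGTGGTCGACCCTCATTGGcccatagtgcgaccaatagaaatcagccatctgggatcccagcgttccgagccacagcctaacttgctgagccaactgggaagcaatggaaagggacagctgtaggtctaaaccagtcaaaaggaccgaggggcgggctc
Hspa5: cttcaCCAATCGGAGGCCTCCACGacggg
Pdia6: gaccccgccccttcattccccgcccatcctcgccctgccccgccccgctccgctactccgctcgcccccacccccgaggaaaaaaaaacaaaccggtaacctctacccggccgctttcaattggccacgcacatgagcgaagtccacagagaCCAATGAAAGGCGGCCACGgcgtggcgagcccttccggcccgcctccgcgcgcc

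Heat shock genes outside the endoplasmic reticulum went both ways. Hspa1a, an inducible HSP70, measured 31.2, 40.4, 41.5 and 46.8 CPM on control diet and 93.4, 87.4, 59.3 and 139.7 CPM with treatment, and its near-identical neighbour Hspa1b 36.5, 46.4, 47.0 and 76.4 CPM and 95.0, 80.3, 87.6 and 171 CPM, so the split of reads between them is uncertain. Neither overlapped, and treated library 4 was highest in both. Hsph1, an HSP110 cochaperone, measured 21.1, 31.9, 43.8 and 36.6 CPM and 29.6, 21.5, 13.4 and 19.8 CPM, and Dnaja1, an HSP40 cochaperone, 26.7, 23.3, 30.7 and 17.7 CPM and 22.9, 15.4, 15.1 and 10.9 CPM. These overlapped between the diets and were lower at an unadjusted p under 0.05, together with the mitochondrial chaperonin Hspd1. Of 12 members 6 were above 0 and 6 below. Of these, 2 were higher (4.01% of all genes tested) and 3 lower (2.43%) at an unadjusted p under 0.05, and 2 did not overlap (2.12%). Only 0 or 1 was lower at that p when control-diet library 2, 3 or 4 or treated library 2, 3 or 4 was left out. In edgeR 0 heat shock genes passed adjustment, while DESeq2 called Hspa1a (adjusted p 0.0115). The edgeR adjusted p-values of Hspa1a, Hspa1b, Hsph1 and Dnaja1 were 0.347, 0.433, 0.765 and 0.734. Dnaja1 overlaps Smu1 and Gm6297 and is uncertain.

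**Figure D5:**
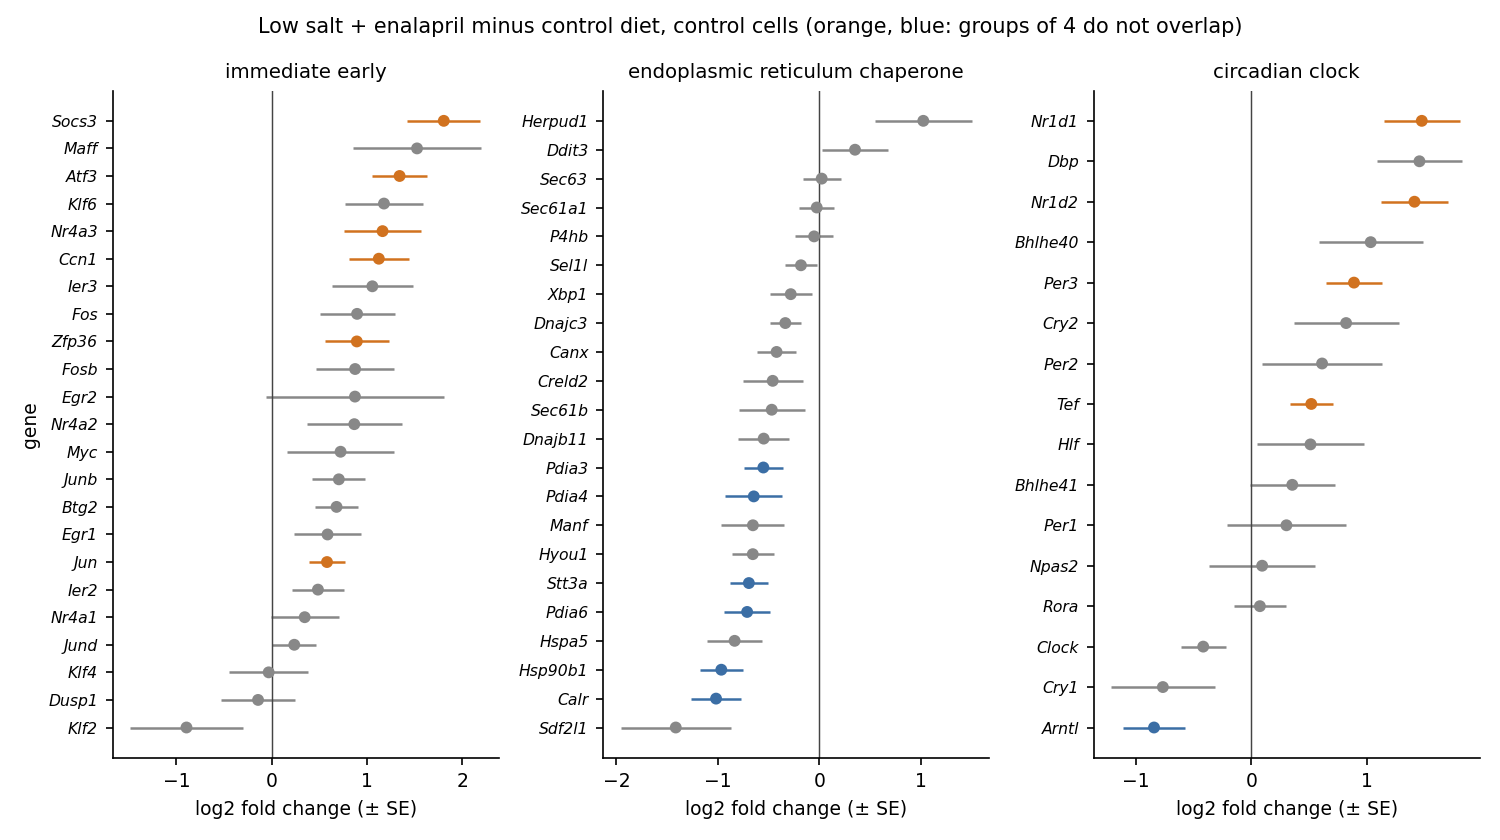
Log2 fold change with standard error for every tested member of the immediate early, endoplasmic reticulum chaperone and circadian clock lists in control cells, with orange (higher) and blue (lower) marking genes whose 4 control-diet and 4 treated libraries do not overlap. Most immediate early genes lie right of 0 and most chaperone genes left of it, and the clock repressors Nr1d1 and Nr1d2 lie opposite Arntl.

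Among the core clock genes, Nr1d1 and Nr1d2 stood opposite Arntl, which peaks in the other phase of the day. Nr1d1 and Nr1d2, the REV-ERB repressors, measured 2.72, 5.44, 3.61 and 6.60 CPM and 6.30, 4.03, 5.04 and 7.63 CPM on control diet, and 10.1, 10.005, 11.1 and 19.7 CPM and 13.3, 9.27, 23.9 and 14.8 CPM with treatment. Neither overlapped, and their log2 fold changes were 1.48 and 1.41 with edgeR adjusted p-values of 0.347 and 0.315. Arntl, which encodes the activator BMAL1 that REV-ERB proteins repress, measured 16.0, 12.6, 13.3 and 12.2 CPM and 5.75, 11.7, 4.61 and 8.33 CPM, without overlap in the other direction. Per3, a period repressor, measured 3.04, 2.72, 4.18 and 4.44 CPM and 6.06, 5.37, 8.60 and 6.70 CPM, and Tef, a PAR bZIP output factor, 6.30, 8.72, 9.60 and 8.15 CPM and 9.90, 13.2, 11.3 and 12.8 CPM, both without overlap. Dbp, another PAR bZIP factor, measured 0.869, 1.41, 1.24 and 1.96 CPM and 4.53, 1.46, 3.98 and 4.77 CPM and overlapped through treated library 2.

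Of 16 tested clock genes, a list chosen after values were seen, 13 were above 0 with a median of 0.52. Arntl, Clock and Cry1 were below 0, and Npas2 was among those above. At an unadjusted p under 0.05, 6 were higher (4.01% of all genes tested) and 1 lower (2.43%), and 4 higher and 1 lower did not overlap (2.12% and 2.06%). In edgeR 0 passed adjustment and in DESeq2 Nr1d1, Nr1d2 and Dbp did, while Nr1d2 passed with the podocyte score (edgeR adjusted p 0.0371) and with the endothelium score (0.0484) as covariates. Leaving out the 3 glomerulus-poor libraries, 5 were higher and 0 lower at an unadjusted p under 0.05, the list median was 0.011, and Nr1d1, Nr1d2, Dbp, Per3 and Arntl stood at 1.94, 1.27, 1.49, 0.88 and -0.50. Bhlhe40, a repressor that stress also induces, measured 14.2, 11.3, 11.1 and 17.2 CPM and 28.8, 9.76, 58.9 and 13.0 CPM, high in treated libraries 1 and 3. The hour at which each kidney was taken is not given in the sources used here, so treatment and hour cannot be told apart. The E-box letters CACGTG, through which BMAL1 and CLOCK act, were found on both strands in 6 of 20 clock promoters, against 6.02% of all 32851. These belong to Bhlhe41, Ciart, Cry1, Per1 and Tef, and the E-box can overlap the end of the stress element given above. Nr1d1 overlaps Thra, Dbp overlaps Sphk2 and Tef overlaps Gm17597, so these counts are uncertain.

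Proximal tubule genes were scarce and mixed, with Kap as the exception. Kap, the kidney androgen-regulated protein, measured 6.96, 9.19, 17.0 and 5.88 CPM on control diet and 0.537, 2.44, 0 and 0.609 CPM with treatment, without overlap. Its log2 fold change was -3.63 (standard error 0.74), which missed the threshold with edgeR (adjusted p 0.315) and passed with DESeq2 (adjusted p 0.00146) and with the podocyte score as a covariate (edgeR adjusted p 0.0378). It was -3.15 without the 3 glomerulus-poor libraries. The Y-linked genes Ddx3y and Uty were present in every library, with 17.9, 14.8, 13.8 and 9.49 CPM of Ddx3y on control diet and 11.6, 12.2, 14.9 and 18.2 CPM with treatment, and 8.69, 6.28, 7.51 and 7.12 CPM and 7.13, 7.81, 11.7 and 6.40 CPM of Uty. Slc7a13, an amino acid transporter of the late proximal tubule that androgens also induce, measured 0.978, 1.501, 1.52 and 1.03 CPM and 0.844, 0.488, 0.210 and 0.102 CPM, near the floor in the treated libraries. Lrp2, the endocytic receptor megalin, measured 13.9, 15.1, 27.5 and 13.9 CPM and 13.8, 14.9, 3.56 and 24.9 CPM and had an edgeR adjusted p of 0.997. Pck1, the gluconeogenic carboxykinase, measured 3.48, 3.19, 11.6 and 1.24 CPM and 43.7, 2.68, 37.7 and 8.02 CPM, and Slc27a2, a fatty acid transporter, 6.30, 5.35, 9.89 and 6.09 CPM and 23.4, 8.30, 23.3 and 14.2 CPM, both highest in treated libraries 1 and 3. Of 18 proximal tubule genes 10 were above 0 and 8 below, with a median of 0.087.

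Ribosomal protein genes were higher by small amounts in nearly all members. Of 84 cytosolic ribosomal protein genes tested, 81 were above 0 with a median log2 fold change of 0.45, 35 were higher at an unadjusted p under 0.05 (4.01% of all genes tested) and 19 did not overlap (2.12%). In edgeR 0 passed adjustment, while DESeq2 called Rplp0. Rplp0, a stalk protein of the large subunit, measured 55.6, 51.5, 61.6 and 78.0 CPM on control diet and 138, 84.9, 129 and 85.7 CPM with treatment, and Eef1a1, the translation elongation factor, 219, 192, 193 and 219 CPM and 406, 261, 353 and 319 CPM. The groups did not overlap in either, and treated library 1 was highest in both. Treated library 1 also had the highest summed ribosomal level, with 3381, 2089.8, 2129.8 and 2294 CPM in treated libraries 1 to 4 and 1860.5, 1831, 1763 and 1939 CPM on control diet. Without treated library 1, 9 members were higher at an unadjusted p under 0.05 with a median of 0.27, without control-diet library 3 this held for 18, and without the 3 glomerulus-poor libraries for 14, with a median of 0.34. Scaling by library totals alone gave 11 ribosomal protein genes at that p with a median of 0.33, and the replicate block gave 20. Many ribosomal protein genes have near-identical pseudogenes, so their single counts are uncertain.

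All 35 mitochondrially encoded genes tested were below 0, with a median of -0.67, and 5 were lower at an unadjusted p under 0.05 (2.43% of all genes tested) while 0 passed adjustment in edgeR or DESeq2. mt-Nd2, a subunit of respiratory complex I, measured 343, 345, 502 and 979 CPM on control diet and 189.7, 265, 273 and 267 CPM with treatment, without overlap. Summed over the list, mitochondrial genes took 37092, 38462, 55927 and 103143 CPM on control diet and 39687, 45334, 67717 and 45059 CPM with treatment, and the tubule-rich control-diet library 4 was highest. The median and the sum weigh different RNA classes. Most members are transfer RNA genes, while the ribosomal RNA genes mt-Rnr1 and mt-Rnr2 hold most of the sum. The transfer RNA gene mt-Tg had 825, 10324, 857 and 1578 counts in control-diet libraries 1 to 4. Without control-diet library 4 the log2 fold change of mt-Nd2 was -0.68, and without the 3 glomerulus-poor libraries it was -0.58 and the list median -0.25. The mitochondrial median was -0.32 without control-diet library 2, and the number of genes at that p ran from 2 without control-diet library 4, or without treated library 1, to 12 without control-diet library 1. Medians kept their sign under each scaling run here, positive for ribosomal and negative for mitochondrial genes.

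With the podocyte score, centred within each diet, in the model, more genes passed. In edgeR 35 genes had an adjusted p under 0.05, 30 higher and 5 lower (0.212% and 0.0353% of those tested). Ren1, Akr1b7, Nr1d2, Kap, Lcn2, Clu, Spp1, Mt1, Mt2 and Rplp0, described above, were among them. The genes named next were chosen after these calls were seen. Mmp7, a matrix metalloproteinase that injured tubules release, had 0 counts in all 4 control-diet libraries. With treatment it measured 57.8, 0.244, 79.2 and 0.203 CPM. The treated mean was at least 114-fold higher relative to 3 counts per library, but treated libraries 2 and 4 themselves held fewer than 3 counts. Fgg, the fibrinogen gamma chain, also had 0 counts on control diet and measured 7.44, 1.22, 20.5 and 0.203 CPM with treatment. Its treated mean was at least 24.5-fold higher by the same measure, with treated library 4 below 3 counts. Pigr, which carries antibodies across epithelia, measured 1.63, 2.53, 2.47 and 6.70 CPM and 48.7, 10.2, 42.6 and 2.84 CPM. Cyp4a14, a fatty acid omega-hydroxylase of the proximal tubule, measured 0.217, 0, 0.0951 and 0 CPM and 13.1, 0.976, 16.1 and 1.42 CPM, and Fga, the fibrinogen alpha chain, 0.217, 0.188, 0.190 and 0 CPM and 14.5, 1.22, 20.96 and 1.42 CPM. All of these were highest in treated libraries 1 and 3. Capg, an actin filament capping protein, measured 2.17, 2.06, 2.57 and 1.86 CPM and 10.1, 4.15, 7.55 and 5.08 CPM, and Lgmn, a lysosomal endopeptidase, 9.35, 9.38, 10.6 and 11.96 CPM and 37.9, 16.8, 44.4 and 14.2 CPM, each without overlap.

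The 5 genes called lower with the podocyte score were Adamtsl2, Tfrc, Kap, Sfrp2 and Ptn. Adamtsl2, a secreted matrix protein, measured 5.22, 5.53, 7.41 and 5.47 CPM on control diet and 0.614, 2.44, 0.210 and 1.32 CPM with treatment, without overlap. Tfrc, the transferrin receptor for iron uptake, measured 7.82, 8.91, 6.94 and 42.4 CPM and 6.29, 2.20, 7.97 and 3.45 CPM, with control-diet library 4 far above the rest. Sfrp2, a Wnt antagonist, measured 26.5, 61.9, 19.8 and 0.309 CPM and 0.307, 4.39, 0.629 and 1.62 CPM, and Ptn, the growth factor pleiotrophin, 13.8, 31.4, 9.98 and 0.619 CPM and 0.384, 1.71, 0 and 1.32 CPM. Control-diet library 4 was low in these, so the groups overlapped. With the endothelium score 15 genes passed (13 higher, 2 lower), and with the principal cell score 1, Ren1.

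In macula densa cells of the same cortex, 6 of the genes described above lay on the same side and others did not. These genes were chosen after their values were seen. The description numbers of treated control-cell libraries 2 and 4 and of control-diet libraries 2 and 3 recur among the macula densa libraries, so the cell populations may share kidneys. Ren1 measured 1.43 and 0.976 CPM in the 2 control-diet macula densa libraries and 8.22 and 11.0 CPM in the 2 treated ones, far below the level in treated control cells. Lcn2 measured 0 and 0.569 CPM and 11.7 and 13.9 CPM, and Kap 42.7 and 63.5 CPM and 6.502 and 0.655 CPM. Nr1d2 measured 7.27 and 6.91 CPM and 17.98 and 23.9 CPM, Hsp90b1 307 and 288 CPM and 222 and 140.5 CPM, and Egf 915 and 1363 CPM and 151 and 134 CPM. The diets did not overlap in any of these, but the edgeR adjusted p-values within macula densa cells were 0.214 for Ren1 and 0.216 to 0.398 for the other 5. Akr1b7 measured 0.205 and 0.325 CPM and 0.382 and 0 CPM. The genes Gmcl1, Gprin3 and Dab1, which were lower in every treated control-cell library, had macula densa log2 fold changes of -0.00081, 0.15 and 2.25.

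The difference between the diet effects, macula densa minus control cells, was -1.22 for Ren1, -1.24 for Lcn2, -0.29 for Kap, 0.15 for Nr1d2, 0.25 for Hsp90b1, -0.90 for Egf and -3.01 for Akr1b7. The standard errors were 0.74, 2.48, 1.25, 0.49, 0.36, 0.96 and 1.27. In edgeR 0 genes passed for that difference (996 at an unadjusted p under 0.05), with adjusted p-values of 0.689 to 0.976 for these genes, in a fit that did not pair libraries. With the description number as a block, an alternative chosen after seeing the data that rests on the 8 libraries that share a number, 3 genes passed (Akap2, Slc4a9 and Sparcl1) and 895 had an unadjusted p under 0.05. That fit left only 2 residual degrees of freedom, against 8 in the unpaired fit. The paired difference was -1.87 for Ren1 (standard error 0.65), 3.17 for Lcn2 (0.85) and -3.77 for Akr1b7 (1.40), at edgeR adjusted p-values of 0.669, 0.508 and 0.696. The difference for Lcn2 turned direction, and treated control-cell libraries 1 and 3, which held the most Lcn2, share no number with a macula densa library.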

How the data were processed

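RNA of sorted kidney cells was sequenced from libraries made at one time with a low-input stranded total RNA kit, per the labels' protocols. The deposited table holds expected counts per gene for 23378 genes in 12 libraries, of which 16.1% are not whole numbers. Per the submitters' processing notes, STAR 2.61, Partek and mm10 were used. The counting step and its strand setting are not given in the sources used here, and the gene coordinates equal GENCODE M21 for 23351 genes. Counts were rounded and genes kept by filterByExpr (count minimum 10, total minimum 15), which left 14180. All 12 libraries were fitted with edgeR 4.0.16 (R 4.3.3) by the quasi-likelihood test after TMM scaling, with 1 coefficient per group and Benjamini-Hochberg adjustment at 0.05. CPM were taken from scaled totals, and log2 CPM used a prior count of 2. On simulated data with 200 genes changed 4-fold, 88% were recovered, with 11 false calls among 13659 tested. This share holds for the simulated data and is not the power in these libraries. Here Lcn2 and Clu, at log2 fold changes of 6.55 and 3.57, did not pass.

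Named genes were those past the threshold, the 10 smallest p-values in each direction among genes of at least 5 CPM, and members of gene lists. Members and lists were chosen with earlier results of these data known, and 3 lists after values were seen. Alternatives were DESeq2 1.42.0, limma 3.58.1 voom, other scalings, filters and thresholds, the 8 libraries alone, a replicate block, marker scores as covariates and leaving out libraries. RefSeq promoters (GRCm38.p6) were searched for 4 motifs. No 2 libraries agreed within sampling noise.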

Additional observations from a re-analysis of the deposited data

Results flagged for a closer look

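In 8 of 230 groups of 4 libraries checked, the highest or lowest library lay far from the other 3 on the log2 CPM scale. This is a smaller share than the 1 in 20 or so that chance gives. Treated library 3 stood apart in the endoplasmic reticulum genes Herpud1, at 5.55 against 3.30 to 3.55 in the others, and Pdia6, at 3.36 against 4.19 to 4.32. The same library was high in Mme, at 5.14 against 4.80 to 4.85. Treated library 2 stood apart in the clock gene Dbp, at 0.76 against 2.07 to 2.32, and in the immediate early gene Nr4a3, at 1.96 against 1.18 to 1.29. Treated library 4 was high in Nr1d1, at 4.32 against 3.36 to 3.503, and treated library 1 low in mt-Nd2, at 7.57 against 8.05 to 8.09. Control-diet library 1 was low in Hspa5, at 6.08 against 6.81 to 6.94.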

How the results depend on the processing

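Ren1 was higher under every alternative run here and the only call in most of them. DESeq2 called 74 genes (61 higher, 13 lower), the podocyte score as covariate 35 (30 higher, 5 lower) and the endothelium score 15 (13 higher, 2 lower). The 8 control-cell libraries fitted alone gave 0 calls, 0 higher, with 730 genes at an unadjusted p under 0.05 and Ren1 at a log2 fold change of 4.25 (edgeR adjusted p 0.0870). Leaving out 1 library at a time gave 1 to 5 calls, with 5 without treated library 4 (Ren1, Fga, Cyp4a14, Serpina3n and Lcn2) and 1 otherwise. Without the 3 glomerulus-poor libraries, an alternative chosen after seeing the data, 5 of the named genes turned direction: Pck1 to -0.087, Fkbp5 to -0.049, Zbtb16 to -0.81, Sik1 to -0.30 and Bhlhe40 to -0.078. Of 2347 gene fold changes under alternatives 2301 kept their direction and side of the threshold. Of 599 list medians, 583 shifted by less than the spread of the list score within a diet. That limit is wide for cell type lists, and the intercalated cell median ran from -1.27 to 0.029 within it. Of 1198 counts of list members at an unadjusted p under 0.05, 983 were equal or close to the main count. The cause of these shifts was not tested.

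With the replicate number as a block, 0 genes passed, 0 higher (670 at an unadjusted p under 0.05), and the log2 fold change of Ren1 was 4.19 (edgeR adjusted p 0.0990). Libraries that shared a number correlated across diets, as deviations from their group means, at -0.355, 0.278, -0.068 and -0.377 for numbers 1 to 4. None correlated best with its own number. Because cell content differed widely between libraries, these correlations cannot decide whether libraries of equal number share a day or batch.

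Depth was limited to 781257 to 2331481 nuclear protein-coding counts per library, so genes under about 1 CPM rest on a handful of counts.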
